A study of Mus musculus with 3 samples.

Results

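The 5 genes described here encode ligands and enzymes with which tumour cells or their neighbours can restrain T cells: Cd274 (PD-L1), Arg1 (arginase 1), Nt5e (CD73), Ptges (prostaglandin E synthase) and Ceacam1. They were found by exact gene symbol in the authors' deposited table of fold changes, where they make up 5 of 11886 genes and 8 of 17910 RefSeq transcripts. Cd274, Arg1, Nt5e and Ptges have 1 transcript each and Ceacam1 has 4. The members were selected on their values in the 3 comparisons of this table (high in one or both tumour pools, or isoforms that differ), so these values are a description and nothing is tested with them.

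RNA came from mT3-2D-GFP, a GFP-tagged mouse pancreatic cancer line of C57BL/6 origin derived from a tumour of KPC mice, a widely used engineered model of the disease. The 3 libraries were the line grown in culture, GFP+ cells sorted from tumours of the line in B6.CB17-Prkdcscid/SzJ (SCID) mice, whose T and B cells do not develop while macrophages and NK cells remain, and GFP+ cells sorted from its tumours in immunocompetent C57BL/6 (WT) mice. Each tumour library is a pool, from 5 tumours in SCID hosts and from 6 in WT hosts, the labels give no ages of the mice, and all 3 libraries rest on a single cell line. With 1 library per group there is no spread between animals, no test was possible and no p-value is given.

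The members act at different steps of immune restraint. PD-L1 on a cell surface engages PD-1 on T cells and dampens their activation, and interferon-gamma, released by activated T and NK cells, is its best known inducer. Arginase 1 breaks down arginine, which T cells need to proliferate, and in mice it is a classical product of alternatively activated macrophages as well as of liver. CD73 turns extracellular AMP into adenosine, prostaglandin E synthase makes prostaglandin E2 from the product of the cyclooxygenases, and both products signal to immune cells through G-protein coupled receptors. CEACAM1 is an adhesion molecule that binds itself on neighbouring cells, and its long cytoplasmic tail carries inhibitory tyrosine motifs that recruit the phosphatases SHP-1 and SHP-2.

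All values are the authors' fold changes, read as log2, and are given relative to the cultured line, which is 0 by construction. The table holds no counts or expression levels, so the depth behind each value is unknown, levels cannot be compared between genes, and in these bulk libraries a change in RNA per cell cannot be told from a change in the share of cells that make it. The lowest and highest of all 11886 gene values were -2.49 and 2.77, which is narrow for ratios of single libraries, so a fold on this scale may not equal a fold in reads. Transcripts of 1 gene differed among themselves with a pooled SD of 0.33 for SCID minus line, 0.31 for WT minus line and 0.22 for WT minus SCID; it describes transcripts, not mice, and is the one measure of spread that the table offers. All 11 listed epithelial markers had a value. The keratins Krt8 and Krt18 lay within 2-fold of the line in both tumour pools, as most genes did. That is no check of cell identity. In SCID minus line 3 of the 11 were higher by 2-fold, Epcam at 1.25, Sox9 at 1.28 and Cldn4 at 1.01. Lower by 2-fold were 2, Krt7 at -1.18 and Krt19 at -1.01. In WT minus line Epcam at 1.59, Sox9 at 1.11 and Cldn4 at 1.26 were higher by 2-fold, and none was lower.

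**Figure D1:**
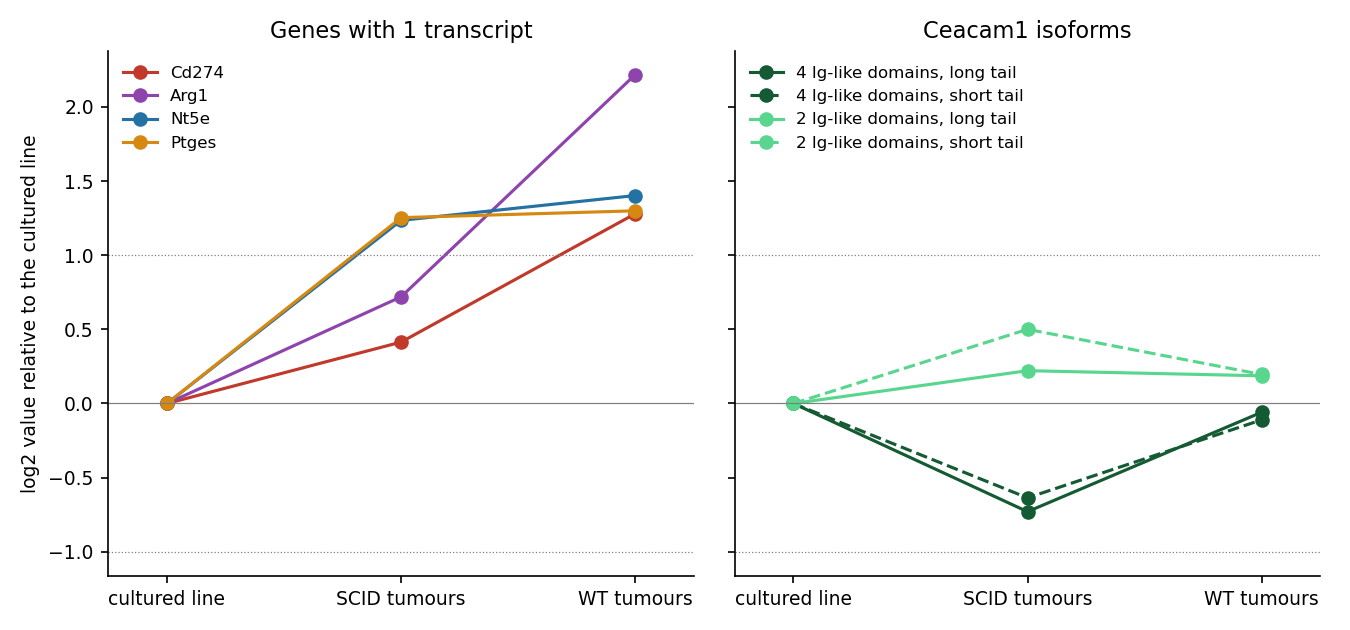
Value of each member in the cultured line, the SCID pool and the WT pool, on the authors' log2 scale relative to the line (line at 0, 1 library per point; dotted lines mark 2-fold). Cd274 and Arg1 step up from SCID to WT, and Nt5e and Ptges reach nearly their full height in SCID already. The Ceacam1 isoforms with 4 Ig-like domains, which also have the longer ends in the GENCODE models, lie apart from those with 2.

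Read against the whole table, 3.65% of genes were higher by 2-fold in SCID minus line, 4.12% in WT minus line and 0.303% in WT minus SCID. The members higher by 2-fold were 2 of 5 in SCID minus line (Nt5e, Ptges), 4 of 5 in WT minus line (all but Ceacam1) and 1 of 5 in WT minus SCID (Arg1). No member was lower by 2-fold in any comparison, where 2.62%, 2.03% and 0.0168% of all genes were. The rule chose genes on these same contrasts, so nothing is read from the counts. The 2 comparisons with the line also share that library. Just inside the threshold were Nt5e at 1.23 and Ptges at 1.25 in SCID minus line. In WT minus line Cd274 at 1.28 and Ptges at 1.30 were. Those just outside were Arg1 at 0.72 in SCID minus line and Cd274 at 0.87 in WT minus SCID.

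Among the surface ligands, Cd274 lay at 0 in the line, 0.41 in the SCID pool and 1.28 in the WT pool. The WT pool was thus highest, 2.43-fold above the line and 1.82-fold above the SCID pool, while the SCID pool was 1.33-fold above the line. The WT minus SCID value of 0.87 was under the 2-fold threshold of 1 by 0.13 and ranked 55th of 11886 genes. The gene is on chromosome 19 from 29367438 to 29388094 on the forward strand, in coordinates of the deposited table that match GRCm38. Its RefSeq promoter, shown because interferon-responsive elements are what this gene is known for, is given as the 250 bases before the start (GRCm38.p6, chr19:29367188-29367437, forward strand), with capitals for matches to 3 motifs searched on both strands:
Cd274: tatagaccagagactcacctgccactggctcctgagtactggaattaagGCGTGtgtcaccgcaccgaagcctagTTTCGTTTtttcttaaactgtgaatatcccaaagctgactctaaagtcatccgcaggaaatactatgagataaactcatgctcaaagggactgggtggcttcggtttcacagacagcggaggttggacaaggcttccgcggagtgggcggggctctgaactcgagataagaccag
The second capital run, TTTCGTTT, lies 175 to 168 bases before the start and matches AANNGAAA, the core bound by interferon regulatory factors, on the opposite strand. That core occurs in 21.3% of the 32851 promoter windows of this length in the RefSeq table. The first run, GCGTG, is 1 of the 2 spellings (with ACGTG) of the hypoxia response core, and 38.6% of windows hold either. No match to the GAS element of the interferon-gamma response, searched as TTCNNNGAA, is in these 250 bases; 7.02% of windows have one. These are matches of letters and no binding was measured.

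Among listed regulators of PD-L1, Socs3 and Irf1 were among the highest in the WT pool. Of 28 listed, 24 had a value, and in WT minus line 2 were higher by 2-fold, among them Socs3, a feedback inhibitor of cytokine signalling, at 1.15, while Irf1, an interferon-induced transcription factor, was at 1.00, just under the threshold. In WT minus SCID none of the 24 passed 2-fold, 17 were above 0 and the median was 0.04, against 0.00 over all genes; Irf1 was at 0.70, beside 0.87 for Cd274. The Irf1 value is a mean over 2 transcripts that differed, at 1.04 on NM_001159396 and 0.35 on NM_008390 in WT minus SCID. The receptor and kinase genes of the pathway stayed near 0 in WT minus SCID, with Ifngr1 at 0.02, Ifngr2 at 0.13, Jak1 at 0.02 and Jak2 at -0.03. Cmtm6, which stabilises PD-L1 at the cell surface, was at 0.15.

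Other ligands and receptors that meet T cells or macrophages gave a mixed picture. Of 35 listed, 14 had a value, Cd274 included, and in WT minus line 2 were higher by 2-fold and none lower, Cd274 and Icosl, the ligand of the costimulatory receptor ICOS, at 1.01. Icosl was at 0.08 in SCID minus line and 0.93 in WT minus SCID, the value farthest from 0 of that list and above that of Cd274. H2-T23, the non-classical class I molecule Qa-1 that binds the inhibitory receptor NKG2A, was at 0.53 in WT minus SCID. Cd276 (B7-H3), at 0.80 in both pools against the line, Cd47, the "don't eat me" ligand, at 0.46 in both, and Pvr, a ligand of TIGIT, at 0.63 and 0.56, differed by less than 0.10 between the hosts. The galectins Lgals1, Lgals3 and Lgals9 were below 0 in both pools against the line, at values from -0.53 to -0.25. The Lgals9 values are means over 2 transcripts that differed. These were at -0.49 and -0.01 in SCID minus line and at 0.33 and -0.52 in WT minus SCID.

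Arg1 lay at 0 in the line, 0.72 in the SCID pool and 2.22 in the WT pool. It was the highest of the 5 members in the WT pool, 4.65-fold above the line and 2.83-fold above the SCID pool, and in SCID it was 1.65-fold above the line, under the threshold. It ranked 9th of 11886 genes in WT minus line and 8th in WT minus SCID. The gene (NM_007482) is on chromosome 10 from 24915207 to 24927470 on the reverse strand. The SCID value was 32.4% of the WT value on the log2 scale, and for Cd274 that share was 32.4% as well. In the plot of gene values in the tumour pools all 5 members sit to the left of the diagonal. Arg1 and Cd274 lie farthest from it.

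Other genes of arginine and polyamine metabolism lay near 0 between the hosts. Of 24 listed genes 15 had a value, and besides Arg1 none was 2-fold higher in either pool. In WT minus SCID the other 14 had a median of -0.04 and lay between -0.18 and 0.12. Against the line, Srm (spermidine synthase) was lower by 2-fold in both pools, at -1.23 in SCID and -1.16 in WT, and Ddah1, which degrades the nitric oxide synthase inhibitor ADMA, was lower in WT at -1.03 and at -0.96 in SCID. The arginine transporter Slc7a1 was at -0.87 and -0.75, and Odc1 (ornithine decarboxylase), which uses the ornithine that arginase makes, at -0.63 and -0.69. Arg2 and Nos2, the other arginase and the inducible nitric oxide synthase, had no value in the table.

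Macrophage markers were higher in the WT pool beside Arg1 and Cd274, and their part in those values was not tested. Of 29 listed markers 6 had a value, and in WT minus SCID 4 of the 6 were higher by 2-fold: Cfp at 1.78, Fcrls at 1.77, Apoe at 1.75 and Cd68 at 1.26, followed by Mrc1 at 0.82 and Cd14 at 0.80. Their median was 1.51 in WT minus SCID, 2.34 in WT minus line and 0.79 in SCID minus line. Defining markers such as Ptprc, Adgre1, Csf1r and Itgam had no value, so the share of macrophages in either pool cannot be read from the table. Of the T and NK cell markers, 3 of 20 had a value, and Foxp3, Tcf7 and Eomes lay between -0.02 and -0.01 in WT minus SCID. Of 13 dendritic cell markers Zbtb46 alone had one, at -0.07. No listed neutrophil or B cell marker had a value.

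**Figure D2:**
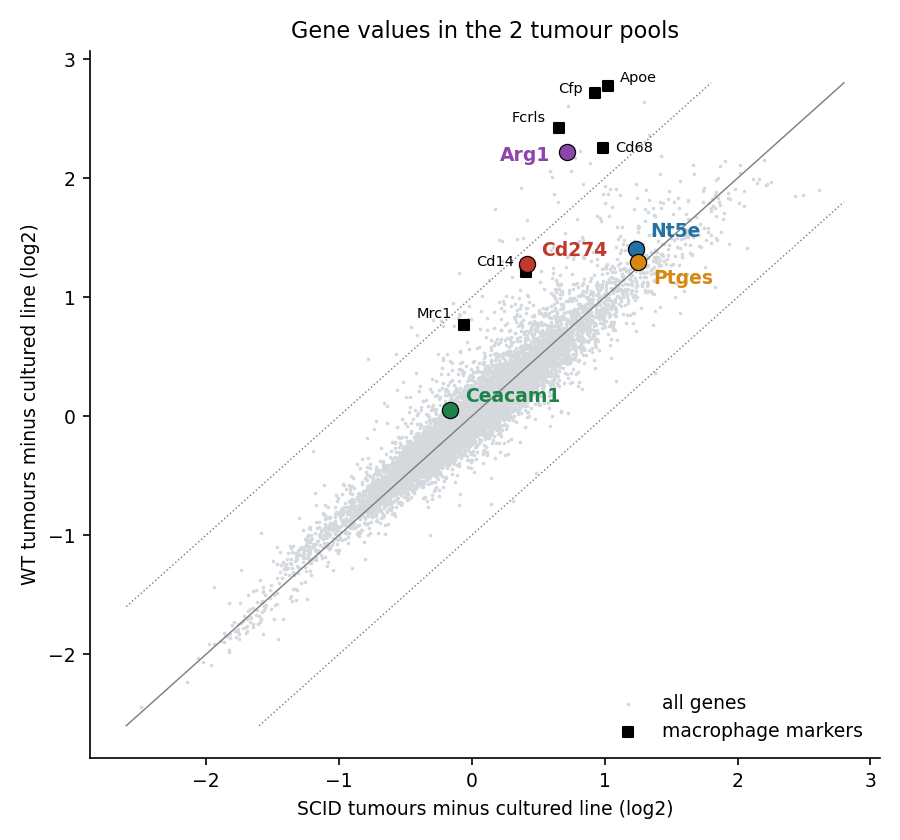
Each gene's value in SCID minus line (x axis) and WT minus line (y axis), both log2, with the 5 members in colour, 6 macrophage markers as black squares and all 11886 genes in grey; the solid line marks equal values and the dotted lines 2-fold between the hosts. Arg1 lies beyond the upper dotted line among Cd68, Fcrls and Cfp, Cd274 lies just inside it next to Cd14, and Nt5e and Ptges lie near the solid line.

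The genes with the most similar pattern were ranked by the distance between gene values in this plane, which rests on 3 libraries and so on 2 independent values per gene. For Arg1 the nearest were Fermt3 (kindlin-3, an integrin activator of blood cells) at a distance of 0.02, Tlr2, a receptor for bacterial lipoproteins, at 0.07 and Rassf2 at 0.10, and 3 of 11234 genes compared lay within 0.1. For Cd274 they were Amz1 at 0.05, Aph1c, a gamma-secretase subunit, at 0.06 and Mertk, a receptor for apoptotic cells on macrophages, at 0.07, with 4 genes within 0.1. Few genes thus lay close to either one.

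Nt5e lay at 0 in the line, 1.23 in the SCID pool and 1.40 in the WT pool. Both pools were past 2-fold, at 2.35-fold and 2.64-fold above the line, and they differed from each other by 0.17 (1.12-fold), less than the pooled SD of 0.22 between transcripts. The gene is on chromosome 9 from 88327609 to 88372089 on the forward strand. Ptges lay at 0 in the line, 1.25 in the SCID pool and 1.30 in the WT pool, or 2.38-fold and 2.46-fold above the line. Its pools differed by 0.05 (1.03-fold), again under that SD. Ptges is on chromosome 2 from 30889471 to 30903297 on the reverse strand. These 2 enzymes, which make unrelated mediators, stood at nearly the same height in both hosts, and their SCID values were 88.1% and 96.5% of their WT values on the log2 scale.

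The promoters of Nt5e and Ptges are shown because the pair stood at like heights above the line. The 250 bases before the RefSeq start (GRCm38.p6) of Nt5e, chr9:88327359-88327608 on the forward strand, and of Ptges, chr2:30903298-30903547 on the reverse strand, carry capitals where the same motifs matched:
Nt5e: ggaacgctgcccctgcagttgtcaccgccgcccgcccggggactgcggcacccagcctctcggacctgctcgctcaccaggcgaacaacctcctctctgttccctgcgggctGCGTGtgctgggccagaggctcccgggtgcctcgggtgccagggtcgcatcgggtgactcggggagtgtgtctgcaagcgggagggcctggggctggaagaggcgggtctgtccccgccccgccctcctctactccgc
Ptges: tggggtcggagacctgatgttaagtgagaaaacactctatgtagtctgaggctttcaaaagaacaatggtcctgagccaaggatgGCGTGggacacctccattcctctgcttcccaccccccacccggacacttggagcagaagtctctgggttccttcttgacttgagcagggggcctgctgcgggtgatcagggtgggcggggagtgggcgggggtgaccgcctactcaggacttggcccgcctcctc
Each window holds 1 hypoxia response core, GCGTG, at 138 to 134 bases before the start of Nt5e and 165 to 161 before that of Ptges. That spelling is found in 28.2% of all windows, and either spelling in 38.6%. The core does not set this pair apart. Cd274 has it too, and the Ceacam1 window holds ACGTG on both strands, between 38 and 33 bases before the start. Neither the Nt5e nor the Ptges window holds the interferon regulatory factor core or the GAS element as spelled above. The windows differed in G and C content, with 72.0% in Nt5e and 59.6% in Ptges, against 50.4% in Cd274. No other feature of the windows was compared. Arg1 is not in the promoter table.

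Around Nt5e, few enzymes of adenosine handling were as high. Of 24 listed genes 15 had a value. In SCID minus line 2 were higher by 2-fold, Nt5e and Enpp1, an ectoenzyme that splits ATP to AMP, at 1.02, and in WT minus line 3 were, Nt5e, Bst1 at 1.14 and Enpp1 at 1.03; none was lower by 2-fold in either pool. Adora2a, the adenosine receptor known for silencing T cells, was at 0.79 and 0.86. The enzymes that remove adenosine lay below 0, with Adk (adenosine kinase) at -0.61 and -0.65 and Ada (adenosine deaminase) at -0.44 and -0.03. In WT minus SCID the 14 other genes had a median of 0.12 and 11 were above 0; Bst1 (CD157), an ectoenzyme of NAD metabolism also found on myeloid cells, passed 2-fold at 1.01. Entpd1 (CD39), which makes the AMP that CD73 uses, had no value.

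In the prostaglandin E2 pathway, Ptges was accompanied by Ptgs2 and Ptger4. Of 23 listed genes 17 had a value. Ptgs2 (COX-2), the inducible cyclooxygenase that feeds Ptges, was at 1.05 in SCID minus line and 0.92 in WT minus line, past 2-fold in the former and just under it in the latter. Ptger4, the EP4 receptor for prostaglandin E2, was at 0.84 and 1.35, and Hpgds, which makes prostaglandin D2, at 0.41 and 1.02. The other prostaglandin E synthases, Ptges2 at -0.34 and -0.24 and Ptges3 at -0.32 and -0.52, lay below 0 in both pools. In WT minus SCID none of the 17 passed 2-fold, and Hpgds, at 0.61, was farthest from 0. Hpgd, the enzyme that inactivates prostaglandin E2, had no value.

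Fibroblast and endothelial markers were higher in both tumour pools than in the line beside Nt5e and Ptges, and their part in those values was not tested. Of 16 fibroblast markers 3 had a value, Col1a1 at 2.61 in SCID and 1.90 in WT, Has1 at 1.61 and 1.55 and Ly6c1 at 0.63 and 1.04, and Pdgfra, Pdgfrb and Dcn had none. Of 12 endothelial markers 4 had one, Flt1 at 1.63 and 1.66, Plvap at 1.22 and 1.37, Eng at 1.12 and 0.93 and Kdr at 0.80 and 1.09, and Pecam1 and Cdh5 had none. Plvap, a component of endothelial fenestrae, was also the gene nearest to Nt5e in the plane, at a distance of 0.03, followed by Slc25a45 at 0.05 and Mical1 at 0.06, with 11 genes within 0.1. For Ptges the nearest were Lrrc4 at 0.02 and Wnt4 and Dkk2, a Wnt ligand and a Wnt antagonist, at 0.03 and 0.04, with 26 genes within 0.1. The tumour cells had been sorted and the labels describe no sort for the cultured line, so growth in a mouse and handling cannot be told apart in either comparison with the line.

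Many other genes linked to immune suppression, most of them secreted factors, were, like Nt5e and Ptges, high in both tumour pools. Of 25 listed, 14 had a value, and 10 of the 14 were higher by 2-fold in each comparison with the line, with medians of 1.10 in SCID and 1.12 in WT against -0.02 and -0.01 over all genes. This list was written when the values of several of its members were known, so its count is no separate evidence. Csf2 (GM-CSF) was at 1.85 and 1.48, Inhba, the activin subunit, at 1.76 and 1.48, and Spp1 (osteopontin) at 1.37 and 1.02. Tgfb1 was at 1.11 and 1.23, Tgfb3 at 1.27 and 1.21, Vegfa at 1.05 and 1.07, Lif at 1.13 and 1.11, Csf1 at 1.02 and 1.13 and Cxcl5 at 1.10 and 1.27. Ahr, a ligand-activated transcription factor and not a secreted one, was the tenth, at 1.18 and 1.22. None differed by 2-fold between the hosts: in WT minus SCID the 14 ran from -0.39 for Il33 to 0.50 for Hmox1, with a median of -0.01. Ido1, Il10 and Tgfb2 had no value.

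**Figure D3:**
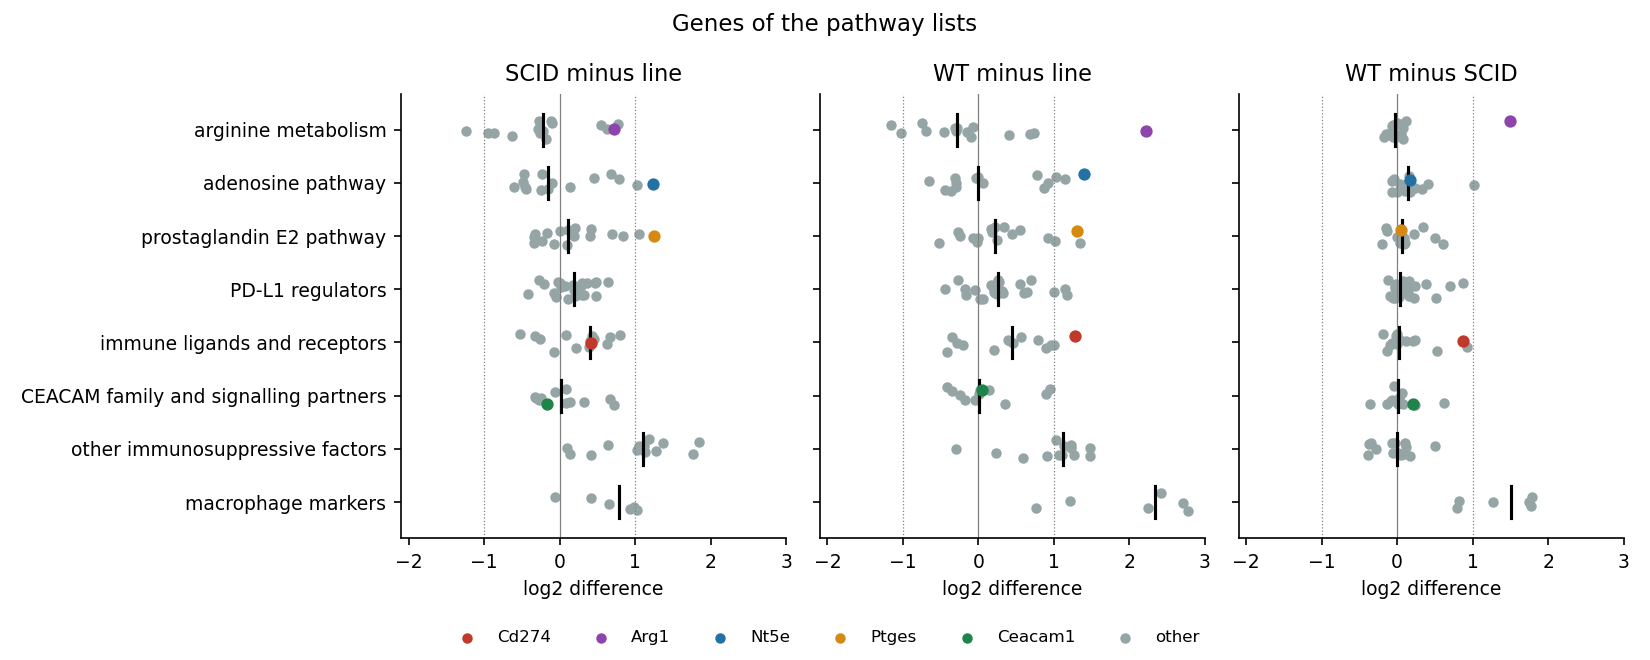
Log2 difference of each measured gene in 8 lists (rows) for the 3 comparisons (panels), with the 5 members in colour, other genes in grey, the list median as a black bar and 2-fold as dotted lines; the vertical scatter within a row has no meaning. Arg1 stands alone in its list in WT minus SCID, and the other immunosuppressive factors have a median above 1 in both comparisons with the line and near 0 between the hosts.

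Ceacam1, the only member with several transcripts, had isoforms that parted. As a gene it was close to the line, at -0.16 in the SCID pool and 0.05 in the WT pool (means over 4 transcripts, with SDs between transcripts of 0.61 and 0.16), and at 0.21 in WT minus SCID (SD between transcripts 0.46). Its transcripts lay on both sides of 0 in every comparison. The gene is on the reverse strand of chromosome 7, and the table gives all 4 transcripts the same span, 25461702 to 25477625. In GENCODE vM21 (GRCm38) the isoforms combine 2 choices. The first is whether the exons at 25474520 to 25474804 (285 bases) and 25473798 to 25474052 (255 bases), which encode the middle Ig-like domains, are kept, giving 4 or 2 such domains. The second is whether a 53-base exon at 25465468 to 25465520 is kept, which sets the reading frame for the long, inhibitory tail; without it the tail is short. Both choices keep the first Ig-like domain, the one through which CEACAM1 binds itself.

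The joins between these exons are shown because they mark the 2 choices; they were read 5′ to 3′ from the GENCODE transcripts, in which the ends of the isoforms differ as well. In the first 2, small letters are the last 30 bases of the first Ig-like domain exon (chr7:25476344-25476373) and capitals the 30 bases joined to it, which begin the second domain (chr7:25474775-25474804) or, where the middle domains are skipped, the last one (chr7:25472044-25472073). In the third, capitals are the 53-base tail exon between 13 bases on either side (chr7:25466317-25466329 and chr7:25464868-25464880), and the fourth is the same join without it:
4-domain junction: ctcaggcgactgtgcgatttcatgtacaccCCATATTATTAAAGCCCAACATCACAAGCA
2-domain junction: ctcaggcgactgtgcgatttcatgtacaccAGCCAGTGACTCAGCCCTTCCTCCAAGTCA
long tail: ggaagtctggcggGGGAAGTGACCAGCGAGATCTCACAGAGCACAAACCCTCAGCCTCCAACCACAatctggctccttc
short tail: ggaagtctggcggatctggctccttc
Each of these joins occurs in 2 of the 4 isoforms, and none of the 4 isoforms has a splice junction that the other three lack. NM_001039186 has 836 bases of its own at its ends, and the others have none. An isoform's value therefore depends on how shared reads were divided, which is not given in the sources used here, and the exons of 276 and 121 bases that lie between the choices are longer than a read of 75 bases. Ceacam2, a close relative of Ceacam1, had no value in the table.

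The isoforms with 4 Ig-like domains were lowest in the SCID pool. NM_001039185 (4 domains, long tail) lay at 0 in the line, -0.73 in SCID and -0.06 in WT, and NM_001039186 (4 domains, short tail) at 0, -0.64 and -0.11. Both were thus lower in SCID and near the line in WT, 1.59-fold and 1.44-fold higher in WT than in SCID. The isoforms with 2 Ig-like domains lay above the line in both pools: NM_011926 (long tail) at 0.22 in SCID and 0.19 in WT, and NM_001039187 (short tail) at 0.50 in SCID and 0.20 in WT. No single isoform passed 2-fold in any comparison.

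**Figure D4:**
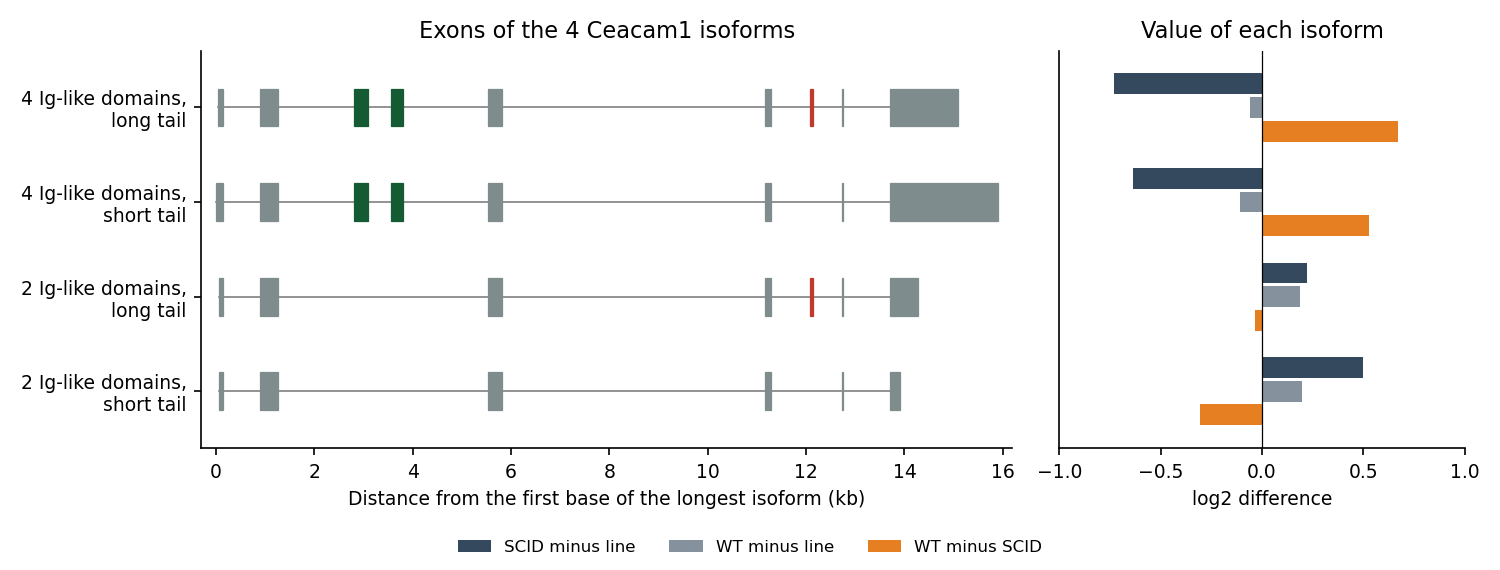
Left, exons of the 4 Ceacam1 isoforms (boxes, to scale in kb from the first base, drawn 5′ to 3′), with the exons of the middle Ig-like domains in green and the 53-base tail exon in red; right, the log2 value of each isoform in the 3 comparisons. Isoforms with the green exons lie below 0 in SCID minus line and above 0 in WT minus SCID, with or without the red exon.

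The isoforms parted more between the domain classes than between the tails. The 4-domain isoforms also have the longer ends in GENCODE, with last exons of 1388 and 2194 bases against 572 and 208, and of the 1395 bases that this pair alone shares, 540 lie in the middle domain exons and 855 in the first or last exon. In those models domain number and length of the ends cannot be told apart. The deposited table gives all 4 transcripts the same start and end, and which exon models were counted is not given. In SCID minus line the 4-domain isoforms had a mean of -0.68 and the 2-domain isoforms 0.36, a difference of -1.04 between them, while long-tail isoforms differed from short-tail isoforms by -0.19. In WT minus SCID the 4-domain isoforms had a mean of 0.60 and the 2-domain isoforms -0.17, a difference of 0.77, and the tails differed by 0.21. In WT minus line the domains differed by -0.28 and the tails by 0.02. Within a domain class the 2 isoforms lay 0.09 (4 domains) and 0.28 (2 domains) apart in SCID minus line. The domain difference in WT minus line is smaller than the pooled SD of 0.31 between transcripts. These are differences between means of log2 values, and without levels they give no ratio of 4-domain to 2-domain RNA.

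For scale, the range between the Ceacam1 transcripts was 0.98 in WT minus SCID. Of 3598 genes with 2 or more transcripts, 76 (2.11%) had a larger range, and of 345 genes with exactly 4 transcripts 10 did. In SCID minus line the range was 1.23, exceeded by 4.25% of the 3598 genes and by 7.83% of the 345. In WT minus line it was 0.31, exceeded by 47.5% of the 3598 and 69.6% of the 345. Nearest to the Ceacam1 gene value in the plane were Rhog, Coasy and Zc3hav1, each within 0.02. In all, 247 genes lay within 0.1 of it, against 3 to 26 for the other members.

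The CEACAM list held few relatives. Of 23 listed family members and signalling partners 12 had a value, and none passed 2-fold in any comparison. In WT minus SCID the value farthest from 0 was that of Ptpn6, the phosphatase SHP-1, at 0.62, and it was also farthest in WT minus line, at 0.95. Ptpn11, the phosphatase SHP-2, was at -0.04 in WT minus SCID. Havcr2 (TIM-3), an inhibitory receptor reported to pair with CEACAM1, was at 0.66 in SCID minus line and 0.90 in WT minus line. Ceacam12, the other Ceacam gene with a value, was at 0.08 and 0.00.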

How the data were processed

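Per the labels' protocols, libraries were stranded, made from poly(A) RNA and read as pairs of 75 bases to a stated mean of 40000000 reads. The authors deposited 1 table of fold changes per RefSeq transcript, read as log2 although its header names no base; the submitters' processing notes list BWA, Partek, R 3.5.1, DESeq2 1.20.0 and mm9 without roles. Normalization, shrinkage, row filters and the division of reads among isoforms are steps not given in the sources used here. In every row subtracting column 2 from column 1 gave the last column within 1e-12, which was therefore taken as the SCID to WT ratio and inverted. Starts of the 4 members with a RefSeq promoter equal those of GRCm38.p6.

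A gene's value is the mean over its transcripts. Python 3.11.15, numpy 2.4.6 and pandas 2.3.3 were used. Simulated data with planted shifts beyond 2-fold checked only the gene means, the fold threshold and the GC content and length adjustment. Members and the 15 lists were chosen with earlier results of these data known. Genes named are the members, in each list up to 3 past 2-fold per direction or else the gene farthest from 0, and the 3 nearest to each member, without Gm, LOC and Rik symbols; others were named after their values were seen. Alternatives were the median, the most extreme or only coding transcripts, centring, a GC content and length adjustment (quadratic, 93.2% of transcripts), other thresholds, and lists without their farthest gene or the members. Pseudocounts and filters on low values need levels and were not run. Some genes the naming rule gives are not reported here.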

Additional observations from a re-analysis of the deposited data

Results flagged for a closer look

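Ceacam1 lay on opposite sides of the cultured line in the 2 tumour pools, at -0.16 in SCID minus line and 0.053 in WT minus line as the mean of its 4 transcripts. With 1 library per group the difference was not tested, and both values are smaller than the pooled SD between transcripts.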

How the results depend on the processing

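Over 75 alternative values of the 5 members (5 settings for each gene and comparison), 73 moved by less than the pooled SD between transcripts. None changed sign or its side of 2-fold. Much of this was fixed in advance. Cd274, Arg1, Nt5e and Ptges have 1 coding transcript each, so the median, extreme and coding-only settings could not change them. All 4 Ceacam1 transcripts are coding as well. Centring only subtracted the median over all genes, -0.015, -0.014 and 0.004 in the 3 comparisons. With the transcript farthest from 0 in place of the mean, Ceacam1 was at -0.73 in SCID minus line and 0.67 in WT minus SCID. With the GC content and length trend removed, Arg1 was at 2.35 in WT minus line, and Ptges at 0.007 in WT minus SCID. At 1.5-fold, 1311 genes were higher and 1121 lower in SCID minus line, 1339 and 994 in WT minus line, and 131 and 21 in WT minus SCID, where 2 members (Arg1, Cd274) passed. At 4-fold these counts were 16 and 4, 26 and 5, and 0 and 0, and the members past it were 0 in SCID minus line, 1 in WT minus line (Arg1) and 0 in WT minus SCID. With the extreme transcript 5 genes, in place of 2, were lower in WT minus SCID. Of 72 alternative list medians 71 moved by less than that SD; the macrophage median in WT minus SCID was 1.26 without its farthest gene, Cfp. No paired analysis was possible because each group has 1 library. Depth is unknown and no difference has a replicate check.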

Other observations

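Isoforms of other genes in the lists parted between the hosts as well. Among 48 listed genes with 2 or more transcripts, 2 had a larger range than Ceacam1 in WT minus SCID, Ptpn6 at 1.17 and Slc29a1, a nucleoside transporter that carries adenosine, at 1.04. For Ptpn6, the phosphatase that the long CEACAM1 tail recruits, NM_013545 lay at 0.28 in the SCID pool and 1.49 in the WT pool relative to the line, while NM_001077705 lay at 0.37 and 0.41. The gene value of Ptpn6 is thus the mean of 1 transcript that was 2.30-fold higher in WT than in SCID and 1 that was at 0.03. Ptpn6 is also expressed by blood cells, and the macrophage markers described above were higher in the same pool; their part in this value was not tested. For Slc29a1, the 5 transcripts ran from -0.24 (NM_001199113) to 0.80 (NM_001199115) in WT minus SCID around a gene value of 0.17. These genes were picked out after their values were seen.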
